A study of Mus musculus with 21 samples.

Results

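The hormones, ligands and receptor through which Sertoli cells signal were examined in RNA-seq of germ cells from juvenile mouse testis. The members were the 7 genes Kitl, Gdnf, Amh, Inha, Inhba, Inhbb and Fshr, chosen by name, and all 7 were found among the 37620 genes of the deposited expression table. The study as a whole asked where the histone methyltransferase PRDM9 binds DNA and which of its sites become recombination hotspots, and it measured gene expression to set beside hotspot density. The RNA-seq comprised 12 libraries, 3 for each of the samples numbered 186wt, 343wt, 444wt and 456wt (4 sample numbers). Every library came from C57BL/6J males at 12 days post-partum and was labelled spermatocytes. The study's 9 other samples were left aside.

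All 4 sample numbers shared 1 condition, with no treatment, mutation or second age, so the data allow a comparison of samples and of genes but not of conditions. The labels do not say how many animals stand behind a number. The cells were enriched from testes by collagenase and trypsin digestion, without a sort on a marker named in the labels. Values are FPKM, fragments of a gene divided by the length of its transcript and by the size of the library, a scale on which levels of different genes can be compared because transcript length is divided out. Within a sample number, the 3 libraries differed by about the counting noise of their fragments. The estimated ratio of chi-square to its degrees of freedom, which is near 1 for pure counting noise, ran from 0.534 for Fshr to 1.62 for Amh over the 5 members with 1 annotated transcript. Between sample numbers it ran from 14.1 for Gdnf to 2002 for Inha. The 3 libraries were therefore averaged and counted as 1 sample, each mean ± SD is over n = 4 samples, and p-values measure the spread between libraries that may share 1 RNA.

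Sertoli cells are the somatic cells that line the seminiferous tubule and nurse the germ cells within it. They make KITL, the ligand of the KIT receptor on differentiating spermatogonia, and GDNF, which acts on spermatogonial stem cells through the receptor RET and its partner GFRA1. They also secrete anti-Müllerian hormone (AMH), a juvenile hormone that makes the Müllerian ducts regress in male embryos, and the inhibins, and they respond to follicle-stimulating hormone (FSH) through FSHR. An inhibin joins the alpha subunit (Inha) to a beta subunit (Inhba or Inhbb), whereas a pair of beta subunits forms an activin. Inhibin lowers and activin raises the release of FSH from the pituitary.

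The promoters of 3 members are shown because they belong to genes with like and unlike profiles over the samples, described further on. Fshr and Inhbb kept close to the Sertoli marker genes, and Inhba did not. Each sequence is the 250 bases before the transcription start in the RefSeq promoter table (GRCm38.p6), read 5′ to 3′ on the strand of the gene, and each was found once on NCBI build 37, the build of the expression data. In these 3 genes the RefSeq start was also the start of the GENCODE gene. Capitals mark matches to the motifs searched on both strands, which were TATAAA (the TATA box), CACGTG (an E-box), TGACGTCA (the cyclic AMP response element), AAGGTCA (a nuclear receptor site) and GGGCGG (the GC box).
Fshr: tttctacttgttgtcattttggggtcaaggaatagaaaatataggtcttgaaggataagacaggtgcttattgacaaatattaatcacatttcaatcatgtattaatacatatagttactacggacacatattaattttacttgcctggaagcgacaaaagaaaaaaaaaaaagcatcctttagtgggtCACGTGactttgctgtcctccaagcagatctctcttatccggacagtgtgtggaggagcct
Inhbb: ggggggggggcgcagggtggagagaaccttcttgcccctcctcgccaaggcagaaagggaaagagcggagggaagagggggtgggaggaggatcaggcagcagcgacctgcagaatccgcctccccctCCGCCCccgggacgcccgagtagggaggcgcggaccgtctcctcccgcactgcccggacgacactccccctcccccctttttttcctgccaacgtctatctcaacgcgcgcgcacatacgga
Inhba: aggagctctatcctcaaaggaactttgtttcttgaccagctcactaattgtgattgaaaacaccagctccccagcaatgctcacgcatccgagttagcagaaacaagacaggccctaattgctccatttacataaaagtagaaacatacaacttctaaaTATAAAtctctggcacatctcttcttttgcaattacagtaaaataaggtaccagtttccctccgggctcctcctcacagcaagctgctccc

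The Fshr window lies at chr17:89600016-89600265 on the minus strand and has a GC content of 36.8%, with 6.75% of the 32817 RefSeq promoters lower. It holds a CACGTG that begins 61 bases before the start, a motif found in 6.02% of all promoters. The Inhbb window at chr1:121318826-121319075, also on the minus strand, is far richer in GC, at 68.0%, with 87.8% of promoters lower. It holds 1 GC box, beginning 122 bases before the start and written as its reverse complement, a motif found in 32.7% of promoters. The Inhba window at chr13:16103434-16103683 on the plus strand has a GC content of 43.2% and a TATAAA that begins 91 bases before the start, a motif found in 12.4% of promoters. The median GC content of all promoters was 52.4%. None of the windows of the 6 members found in the RefSeq table held TGACGTCA or AAGGTCA, which occur in 1.55% and 4.08% of promoters. The RefSeq start minus the GENCODE gene start was 532 bp for Inha, 191 bp for Kitl, and -963 and 2716 bp for Gdnf. The absence therefore holds for the RefSeq windows only. A match is a description of the letters and not evidence of a bound factor.

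RNA of Sertoli cell genes was present in this germ cell preparation beside that of meiotic genes. Markers of meiotic prophase, the labelled cell type, were present. The 11 genes of that list, such as the synaptonemal complex genes Sycp1 and Sycp3, summed to between 338 and 561 FPKM. The 9 Sertoli marker genes found in the table, which hold no member, summed to between 2485 and 4435 FPKM, most of it from Clu, which encodes the secreted chaperone clusterin, at 1844 ± 574 FPKM (SD, n = 4). None of the 9 was at 0 in any sample. In a bulk sample, fewer cells of a type and less RNA per cell cannot be told apart, so none of the values given here is a level per Sertoli cell.

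The levels of the 7 members spanned more than 2 orders of magnitude, from Inha, at 302 ± 96.6 FPKM, down to Inhba, at 1.25 ± 0.461 FPKM. Amh was second at 70.1 ± 21.6 FPKM, followed by Inhbb at 44.7 ± 11.4, Kitl at 41.8 ± 14.8, Fshr at 9.25 ± 2.61 and Gdnf at 3.90 ± 0.576 FPKM. Inha ranked 160 of all 37620 genes and Amh 1194, whereas Inhba ranked 13768. Every member was above 0 in all 12 libraries. Of the summed FPKM of the members, Inha took 63.7 ± 1.67%, Amh 14.8 ± 1.35%, Inhbb 9.57 ± 0.686% and Kitl 8.76 ± 0.609%, and the receptor Fshr 1.98 ± 0.231%. Gdnf took 0.862 ± 0.181% and Inhba 0.280 ± 0.104%, and the share of Inhba ran from 0.137% in 186wt to 0.387% in 456wt. The sum itself was 570 FPKM in 186wt, 626 in 343wt, 355 in 444wt and 341 in 456wt.

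**Figure D1:**
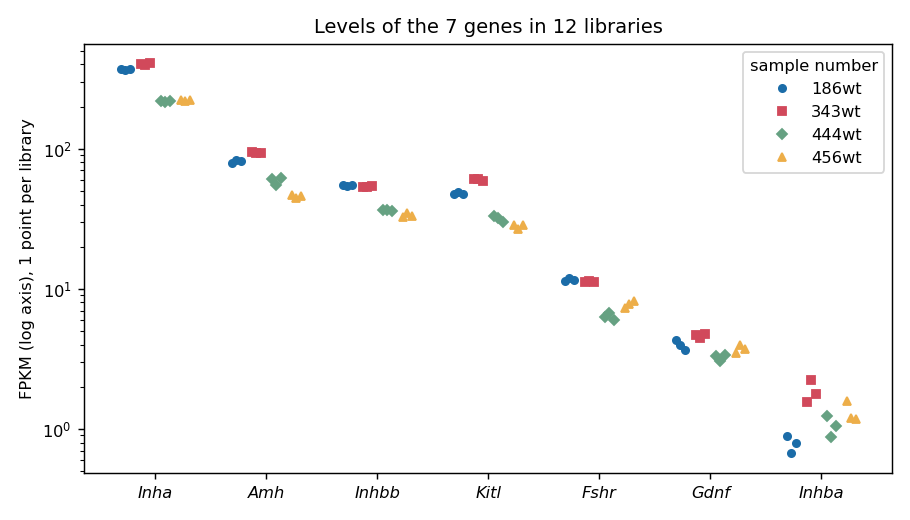
FPKM of the 7 genes (log axis), with 1 point per library and a colour and shape for each of the 4 sample numbers. The genes are ordered from Inha at 302 FPKM to Inhba at 1.25 FPKM, and the 3 libraries of a number spread most for Inhba, the lowest.

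The order of the genes was the same in the 4 samples at every step but 1. Inha exceeded Amh by 4.32 ± 0.482-fold, Amh exceeded Inhbb by 1.56 ± 0.166-fold, Kitl exceeded Fshr by 4.50 ± 0.782-fold, Fshr exceeded Gdnf by 2.35 ± 0.434-fold and Gdnf exceeded Inhba by 3.37 ± 1.17-fold, each in 4 of 4 samples. An exact two-sided sign-flip permutation test gave p = 0.15 for each of these 5 steps after Benjamini-Hochberg adjustment over 6 steps, which comes from the smallest p that 4 samples allow. Inhbb and Kitl, the remaining neighbours, did not differ beyond their spread. Inhbb exceeded Kitl 1.10 ± 0.135-fold on average and in 3 of 4 samples, with Kitl the higher in 343wt (exact permutation p = 0.25).

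All 7 members differed between the 4 sample numbers by more than the spread between libraries (limma F-test on log2(FPKM + 0.1), Benjamini-Hochberg adjusted p below 0.05). Differences of this kind were common in the table, since 58.2% of the 20795 genes tested passed the same test, so the count says little about the members by itself. The size of a difference is given below as the range, the highest minus the lowest sample number in log2(FPKM + 0.1), a scale that slightly understates the change of low genes. The median range was 0.88 over the members and 0.55 over all genes tested. Of the 7, 5 were highest in 343wt and the other 2 in 186wt, and none was highest in 444wt or 456wt. The top sample was not always separated from the next. Between 343wt and 186wt the limma adjusted p was 0.0933 for Gdnf, 0.465 for Inhbb and 0.70 for Fshr. For Inhba it was 0.0697 between 343wt and 456wt. Of all 12107 genes that passed the test, 18.9% were highest in 343wt, 15.7% in 186wt, 37.4% in 444wt and 28.0% in 456wt.

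Inha encodes the alpha subunit that all inhibins share. Its gene lies at chr1:75503652-75506941 on the plus strand, with 1 transcript of 1475 bp, and no other annotated gene overlaps it. Inha was at 369 FPKM in 186wt, 401 in 343wt, 217.5 in 444wt and 221 in 456wt. The first pair of samples lay well above the second, and 444wt and 456wt differed by less than the test could separate (difference 0.02 ± 0.01 SE in log2, limma adjusted p = 0.283). The range was 0.88, larger than that of 73.2% of genes, with a limma adjusted p of 1.75e-12. Between 4191 and 10442 estimated fragments per library stood behind these values, more than for any other member with 1 transcript.

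The beta subunits were unequal. Inhbb (chr1:121312042-121318825, minus strand, 1 transcript of 4255 bp) was at 55.1 FPKM in 186wt, 53.8 in 343wt, 36.2 in 444wt and 33.6 in 456wt. Its range was 0.71 (limma adjusted p = 1.37e-09), with 186wt and 343wt alike to within 0.03 ± 0.03 SE in log2 (limma adjusted p = 0.465). Inhba (chr13:16103684-16119044, plus strand, 2 transcripts of 1529 and 1957 bp) was at 0.783 FPKM in 186wt, 1.86 in 343wt, 1.05 in 444wt and 1.32 in 456wt. Inhba thus had its lowest value in 186wt, where Inha and Inhbb were high. That value was not separated from the one in 444wt (difference 0.38 ± 0.19 SE in log2, limma adjusted p = 0.131). The range of Inhba was 1.14 (limma adjusted p = 0.00161). The range was 0.68 with a pseudocount of 1, 0.76 without 186wt and 0.68 without 343wt, and it passed the test in each case. It rests on few fragments, between 13.7 and 53.9 per library if all came from the shorter transcript and between 17.7 and 69.6 if all came from the longer.

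The ratio of Inha to Inhbb was 6.71 in 186wt, 7.45 in 343wt, 6.01 in 444wt and 6.58 in 456wt (6.69 ± 0.590). It varied by less than either gene did, because both subunits were high and low in the same samples. The ratio of Inhbb to Inhba was 70.3 in 186wt, 28.9 in 343wt, 34.3 in 444wt and 25.4 in 456wt (39.7 ± 20.7), so the transcripts of the beta B subunit outnumbered those of beta A in every sample. The other beta subunit genes were near the floor. Inhbc averaged 0.101 ± 0.041 FPKM, and its difference between samples did not pass the test (limma adjusted p = 0.502), and Inhbe was listed at 0 in 9 of 12 libraries.

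Amh lies at chr10:80267993-80270393 on the plus strand, with 1 transcript of 1665 bp. Amh was at 81.4 FPKM in 186wt, 94.0 in 343wt, 59.1 in 444wt and 46.0 in 456wt. All 4 samples differed from one another, in 6 of 6 pairs, and the smallest difference was between 343wt and 186wt at 0.21 ± 0.04 SE in log2 (limma adjusted p = 0.0023). The range was 1.03 (limma adjusted p = 3.36e-09), larger than that of 79.8% of genes, and 0.67 without 456wt. Sf3a2, a splicing factor gene on the same strand that lies 323 bp from Amh without overlapping it, was at 49.0 ± 2.56 FPKM, a far smaller spread than that of Amh.

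Kitl, the ligand of KIT, lies at chr10:99478264-99563047 on the plus strand, with 4 annotated transcripts of 675 to 5645 bp. Its level was 47.8 FPKM in 186wt, 59.9 in 343wt, 31.6 in 444wt and 28.0 in 456wt, and all 6 pairs of samples differed. Kitl in 343wt exceeded that in 456wt by the widest margin, and the range of 1.09 (limma adjusted p = 1.69e-09) was larger than that of 81.8% of genes. KITL is made as membrane-bound and soluble forms from alternative transcripts, which the gene-level FPKM do not separate. Its receptor gene Kit, expressed by germ cells, was lower in 186wt and 343wt than in 444wt and 456wt, with 41.0 FPKM in 186wt, 34.5 in 343wt, 56.0 in 444wt and 49.2 in 456wt. The FPKM ratio of Kitl to Kit was 1.16, 1.73, 0.565 and 0.569 in the same order, above 1 in 186wt and 343wt and below 1 in 444wt and 456wt.

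Gdnf, the stem cell niche factor, lies at chr15:7761011-7787575 on the plus strand, with 1 transcript of 3509 bp. It was at 3.98 FPKM in 186wt, 4.63 in 343wt, 3.25 in 444wt and 3.73 in 456wt, on 159 to 299 estimated fragments per library. Gdnf had the smallest range of the members as deposited, 0.50 (limma adjusted p = 0.0020), larger than that of 45.5% of genes, and only 3 of 6 pairs of samples differed. Without 343wt, its highest sample, the range was 0.28 and the difference no longer passed the test (limma adjusted p = 0.0682), and without 444wt, its lowest, the range was 0.31 (limma adjusted p = 0.0368). The receptor genes were both more abundant than the ligand. Ret exceeded Gdnf by 3.59, 3.47, 6.06 and 6.00-fold in 186wt, 343wt, 444wt and 456wt, and Gfra1 exceeded it by 1.76, 1.72, 2.77 and 2.66-fold.

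Fshr, the only receptor among the members, lies at chr17:89384292-89600015 on the minus strand, with 1 transcript of 2360 bp. It was at 11.6 FPKM in 186wt, 11.3 in 343wt, 6.33 in 444wt and 7.76 in 456wt. The samples 186wt and 343wt did not differ beyond the spread between libraries (-0.04 ± 0.06 SE in log2, limma adjusted p = 0.695), and the other 5 pairs did. The range was 0.87 (limma adjusted p = 3.06e-07), and 0.58 without 444wt. Lhcgr, the luteinising hormone receptor gene of Leydig cells and the nearest neighbour of Fshr at a distance of 192975 bp, was at 1.47 ± 1.19 FPKM, with 1.46 FPKM in 186wt, 3.11 in 343wt, 0.293 in 444wt and 1.03 in 456wt. Of the gonadotropin genes, Fshb and Cga, which encode the subunits of FSH, were listed at 0 in all 12 libraries, and Lhb averaged 0.457 ± 0.095 FPKM.

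Read pair by pair, 33 of the 42 differences between sample numbers passed the test. The fewest members differed between 343wt and 186wt (4 of 7, with 20.4% of all genes differing) and between 456wt and 444wt (4 of 7, with 28.2%). Between 444wt and 343wt all 7 differed, with 47.9% of all genes. The other counts were 6 of 7 between 444wt and 186wt (42.4% of genes), 6 of 7 between 456wt and 186wt (41.4%) and 6 of 7 between 456wt and 343wt (41.7%). Inhba was lower in 186wt than in 456wt by 0.68 ± 0.19 SE in log2 (limma adjusted p = 0.0126), but 186wt and 444wt were not separated (limma adjusted p = 0.131). Kitl, Amh, Inha, Inhbb and Fshr were each higher in 186wt and 343wt than in 444wt and 456wt. The median log2 of all genes tested lay between 2.21 in 343wt and 2.41 in 456wt, a shift of the opposite sign, and centring each library on that median left all 7 members past the test and raised the pair count to 37 of 42.

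**Figure D2:**
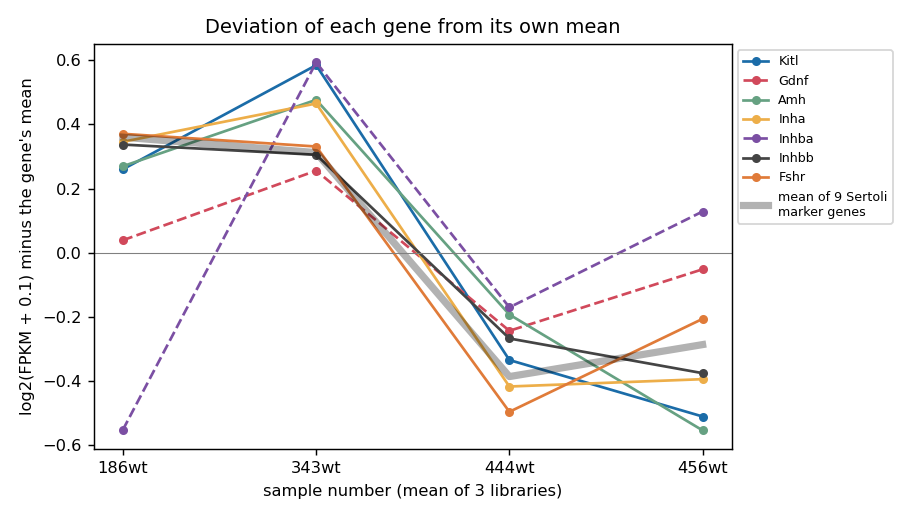
Deviation of each gene from its own mean in log2(FPKM + 0.1), for the 4 sample numbers along the horizontal axis, with the mean of the 9 Sertoli marker genes as a broad grey line. The lines only join the values of a gene, since the samples have no order. Inhba is below its mean in 186wt, at -0.55, where the other 6 genes are above theirs.

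On average the Sertoli marker genes moved in the same samples. Relative to their own means they averaged 0.36 in 186wt, 0.31 in 343wt, -0.39 in 444wt and -0.29 in 456wt in log2, and of the 9 genes 6 were highest in 186wt and 3 in 343wt. The marker Trf did not follow this average in 456wt. It was at 4.01, 3.35, 1.85 and 3.72 FPKM, and 456wt was not separated from 186wt or 343wt (limma adjusted p = 0.612 and 0.445). Markers of other somatic cells were spread otherwise. The 6 Leydig cell genes averaged 0.24, 1.19, -1.63 and 0.20 in the same order and summed to 16.1 to 110.5 FPKM, and the 5 peritubular myoid genes averaged -0.14, -1.03, 0.16 and 1.01 and summed to 253 to 1112 FPKM. The 4 macrophage genes found, summing to 5.43 to 24.4 FPKM, and the 5 endothelial genes, summing to 15.1 to 38.3 FPKM, also differed between samples, and no defining gene of these lists was at 0 throughout. The 11 meiotic genes averaged 0.09, -0.39, 0.39 and -0.10. Rec8 did not follow this average, at 27.0, 17.6, 19.2 and 18.6 FPKM, highest in 186wt. Of the myoid genes, Des was lowest in 186wt at 5.31 FPKM, not separated from 343wt at 6.10 FPKM (limma adjusted p = 0.191). The part of each cell type in the members' differences was not tested.

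When each library was expressed relative to the mean of its 9 Sertoli marker genes, the ranges of 5 members shrank. The range of Inha went from 0.88 to 0.26, that of Inhbb from 0.71 to 0.21, that of Fshr from 0.87 to 0.19, that of Amh from 1.03 to 0.46 and that of Kitl from 1.09 to 0.50. Those of Gdnf and Inhba did not shrink, going from 0.50 to 0.56 and from 1.14 to 1.33. On this scale 6 of 7 members still differed between samples, beside 81.2% of all genes, and Fshr no longer passed the test (limma adjusted p = 0.0709). The median range of all genes went the other way, from 0.55 to 1.07. Kitl, Amh, Inha, Inhbb, Fshr and Gdnf lay below this median on the relative scale and Inhba above it. The same marker profile was subtracted from every gene, so a gene that was flat as deposited gains range by construction. A place below this median therefore says little about a member by itself. What was left differed by gene. Relative to the markers, Amh was lowest in 456wt (-0.27) and highest in 444wt (0.19), Kitl was lowest in 456wt (-0.22) and highest in 343wt (0.27), and Gdnf was lowest in 186wt (-0.32) and highest in 456wt (0.23).

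**Figure D3:**
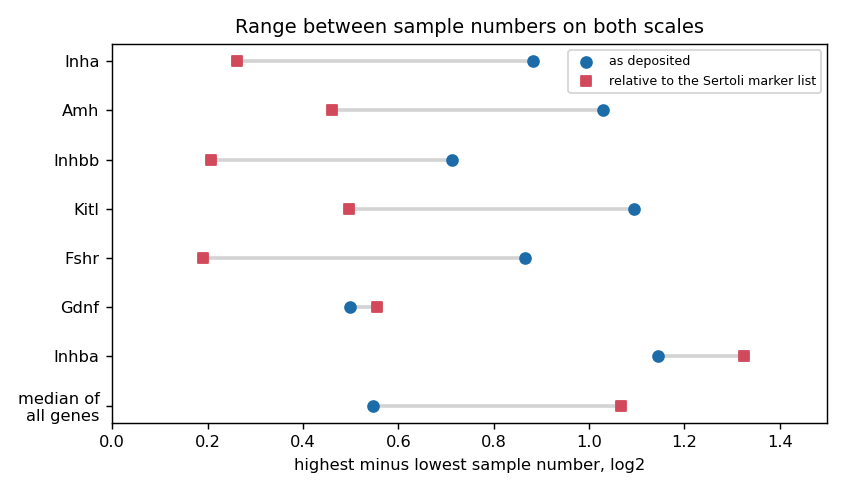
Range between the 4 sample numbers in log2, as deposited (circles) and relative to the mean of 9 Sertoli marker genes (squares), for each gene and as the median of all 20795 genes tested. Fshr goes from 0.87 to 0.19 and Inha from 0.88 to 0.26, whereas Inhba goes from 1.14 to 1.33 and the median of all genes from 0.55 to 1.07.

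Likeness between profiles was measured as the root mean square difference of the centred log2 values over the 12 libraries, where 0 would be identical profiles. Among the members, Kitl and Amh were closest at 0.107, followed by Kitl and Inha at 0.109 and Inha and Inhbb at 0.114. All 6 pairs with Inhba were far apart, at 0.408 to 0.576. The points share libraries and depth, so these values are descriptions. They also include the counting noise of single libraries, and Inhba rests on only 13.7 to 69.6 estimated fragments per library. The part of this noise in the distances of Inhba was not tested.

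Among 14341 genes averaging 1 FPKM or more, the profile nearest to Inha was that of Rps6ka2, which encodes a ribosomal S6 kinase, at 0.032, followed by Wipf3 at 0.044. Nearest to Inhbb were Dtx1, which encodes a regulator of Notch signalling, and Wnk3-ps, both at 0.041. Nearest to Kitl were 4930506M07Rik at 0.058 and Gstm6, a glutathione S-transferase gene, at 0.060. Amh was nearest to Nedd9 at 0.062 and Fndc5 at 0.063, and Fshr to Fuca2, which encodes a fucosidase, at 0.056 and Gamt, an enzyme gene of creatine synthesis, at 0.057. Gdnf was nearest to Lrch3 at 0.049 and Trim8 at 0.063. Inhba was farther from its nearest genes, by a measure that includes the counting noise of its few fragments. Its closest profiles were Ebf1, which encodes a transcription factor, at 0.207 and Fbln2, an extracellular matrix gene, at 0.212. All these genes are the nearest of 14341 over only 4 sample numbers, so close profiles can come from the search alone. They are descriptions, and a shared regulation was not tested.

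The genes that receive, process or relay these signals were described from lists of 44 genes, of which 41 were high enough to be tested. Of these, 28 differed between the samples, beside the 58.2% of all genes. The same share stands beside the count of each list below, so the counts say little about the lists by themselves. Among the 28, 11 were highest in 343wt, 7 in 186wt, 6 in 456wt and 4 in 444wt. The F-test has no direction, and the samples that were highest are given as counts without a test.

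Of the 10 receptor genes of activin, inhibin and AMH, 8 differed, all but Acvr1c (adjusted p = 0.151, limma) and Bmpr1b. The median range of the list was 0.47. Amhr2, the type II receptor of AMH, stood far above the other receptors at 318 FPKM in 186wt, 271 in 343wt, 166 in 444wt and 189 in 456wt, with a range of 0.94 (limma adjusted p = 9.69e-12). It was therefore high in the samples where its ligand was high, although highest in 186wt rather than 343wt, and the ratio of Amh to Amhr2 was 0.256, 0.346, 0.357 and 0.244. The activin type II receptor gene Acvr2b was at 14.9 ± 2.72 FPKM and higher in 444wt and 456wt, at 17.3 and 17.1 FPKM, than in 186wt and 343wt, at 13.3 and 11.9 FPKM. Tgfbr3, which encodes the inhibin co-receptor betaglycan, was at 6.43, 8.19, 7.54 and 10.6 FPKM in the 4 samples and highest in 456wt.

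**Figure D4:**
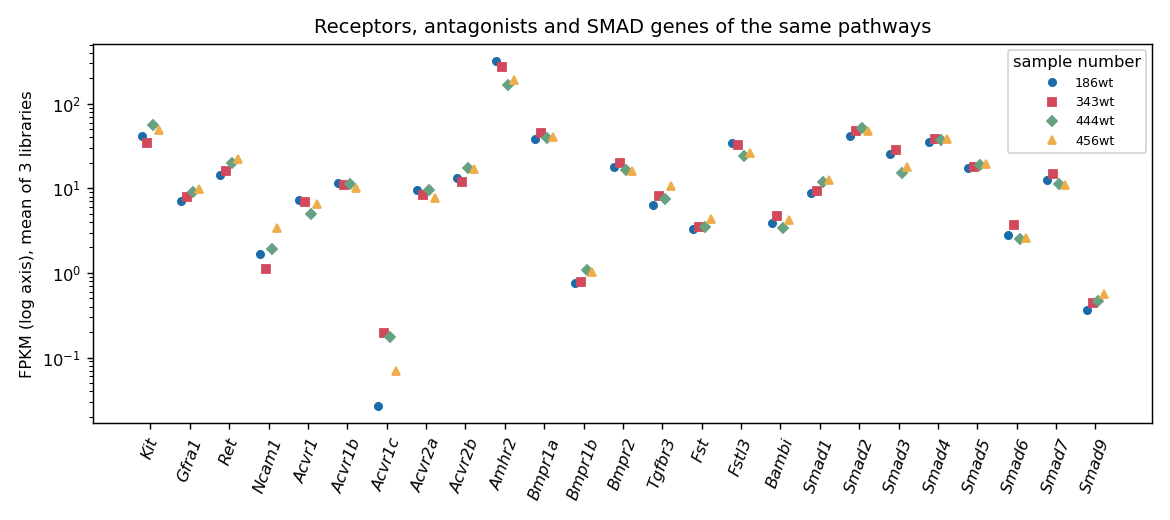
FPKM (log axis) of the receptors of KITL, GDNF, activin, inhibin and AMH, their antagonists and the SMAD genes, with 1 point per sample number (mean of 3 libraries). Amhr2 stands highest at 236 ± 71.1 FPKM and Acvr1c lowest at 0.117 ± 0.082 FPKM.

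Of the 3 antagonists, Fstl3 and Bambi differed between samples and Fst, the gene of the activin-binding protein follistatin, did not pass the test (3.68 ± 0.448 FPKM, limma adjusted p = 0.108). Fstl3, which encodes a follistatin-like protein that binds activin, was at 34.1 FPKM in 186wt, 32.2 in 343wt, 24.4 in 444wt and 26.1 in 456wt. Of the 8 SMAD genes, which relay these signals to the nucleus, 5 differed. Smad3, an activin-responsive member, was at 25.4, 28.4, 15.4 and 18.0 FPKM and had the largest range of them, at 0.88 (limma adjusted p = 3.52e-06). Smad2, which answers the same receptors, was at 41.8, 47.1, 52.2 and 47.5 FPKM, lowest in 186wt and highest in 444wt. The common partner Smad4 did not pass the test, at 37.3 ± 1.26 FPKM (limma adjusted p = 0.201), and neither did Smad5 and Smad9.

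All 4 receptor genes of KITL and GDNF differed between the samples, and each was highest in 444wt (Kit) or 456wt (Gfra1, Ret and Ncam1). Of all genes that passed the test, 37.4% were highest in 444wt and 28.0% in 456wt. The 6 spermatogonium marker genes averaged -0.27, -0.11, 0.22 and 0.15 in log2 relative to their own means, with 5 highest in 444wt and 1 in 456wt, and summed to 417 to 584 FPKM. The exception, Id4, went otherwise, at 8.33 FPKM in 186wt, 8.04 in 343wt, 6.42 in 444wt and 8.97 in 456wt. Id4 was thus lowest in 444wt, separated from 186wt, 343wt and 456wt (limma adjusted p = 0.0026, 0.0053 and 0.00084). The part of the spermatogonium markers in the receptor genes' differences was not tested. Ret was at 14.3 FPKM in 186wt, 16.1 in 343wt, 19.7 in 444wt and 22.4 in 456wt (range 0.65, limma adjusted p = 2.52e-07), and Gfra1 was at 7.02, 7.97, 8.99 and 9.93 FPKM (range 0.49, limma adjusted p = 0.0010). Both were lowest in 186wt, and neither was highest in 343wt, where Gdnf had its highest mean. Gdnf in 343wt was not separated from Gdnf in 186wt (limma adjusted p = 0.0933). Of the 3 GDNF target genes of spermatogonia in the list, Etv5 and Bcl6b differed and Lhx1 did not pass the test. Etv5, which encodes a transcription factor of stem cell renewal, was at 13.7, 16.7, 13.5 and 14.8 FPKM, highest in 343wt. Bcl6b went otherwise, at 3.26, 4.14, 5.37 and 4.16 FPKM, highest in 444wt, where Gdnf had its lowest mean.

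Of the 6 genes that relay the FSH signal through cyclic AMP, 3 differed, beside 58.2% of all genes. All 3 were highest in 343wt, as were 18.9% of all genes that passed the test. Gnas, the stimulatory G protein gene, was at 318 FPKM in 186wt, 371 in 343wt, 228 in 444wt and 281 in 456wt (range 0.70, limma adjusted p = 2.38e-10). The protein kinase A genes Prkaca and Prkar2b were at 71.2 ± 8.44 and 37.7 ± 4.15 FPKM, and Prkar1a, Creb1 and Crem did not pass the test. Prkar2b was at 35.3 FPKM in 186wt, 41.8 in 343wt, 40.6 in 444wt and 33.1 in 456wt. Its values in 343wt and 444wt were not separated (limma adjusted p = 0.421). Of the 5 processing and shedding enzymes, 4 differed and Mmp9 did not pass the test. Furin, a convertase that cleaves the precursors of activin, inhibin and AMH, was at 48.8, 55.5, 38.0 and 39.4 FPKM (range 0.54, limma adjusted p = 1.23e-07). Adam17, a sheddase, passed the test with a range of only 0.12, at 25.3 ± 0.924 FPKM.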

How the data were processed

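The deposited values are FPKM that the authors made before deposit by aligning 100-bp paired-end reads to the NCBI build 37 transcriptome with Bowtie 0.12.9 and quantifying genes with RSEM 1.2.8, the versions given in the submitters' processing notes. A strand setting is not given in the sources used here. The 12 libraries were assigned by column name, and every column was used. FPKM were analysed as log2(FPKM + 0.1) for the 20795 genes averaging 0.1 FPKM or more by limma 3.58.1 (lmFit, eBayes with trend) in R 4.3.3, with an F-test and 6 pair contrasts, each with Benjamini-Hochberg adjustment over all genes and a threshold of 0.05. Other steps used Python 3.11.15, numpy 2.4.6, scipy 1.17.1, pandas 2.3.3 and matplotlib 3.10.9. The scripts were tested on artificial data. There the F-test recovered 62.5% of 200 genes shifted by 1 in log2 in a single sample number, and 5.3% of its calls were false. Only these 200 of 20795 artificial genes were shifted, whereas 58.2% of genes passed in the data. The adjustment depends on that share, so the recovery in the data may differ from 62.5%. A gene that did not pass the test may still differ.

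Depth was estimated from the steps between low FPKM values at 12900000 to 18300000 fragments per library (median 15100000), and fragment numbers cover counting error only. No 100-base stretch of a member's transcripts was shared with another gene's protein-coding transcripts in GENCODE M1. Library numbers 1 to 3 were not used to pair the samples in the main fit. The correlations of library deviations were -0.0648 to 0.128 for the same number and -0.128 to 0.0835 for different numbers. These overlapping ranges cannot decide whether the numbers pair libraries.

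The members, gene lists and tests were chosen with earlier results of these data known. The named genes were the 7 members, the pathway lists, the cell type markers and, for each member, the 2 genes with the nearest profile. Pou3f1, with 2 overlapping gene models, was left out of its list, and Rhox5 and Adgre1 were not found by symbol. Promoters were matched by symbol for 6 of 7 members. Alternatives covered the pseudocount, the filter, the scaling, the replicate block and leaving out each library or sample number.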

Additional observations from a re-analysis of the deposited data

Results flagged for a closer look

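The ratio of Inha to Inhba stood apart in 186wt, at 471, from the values of 215 in 343wt, 207 in 444wt and 167 in 456wt. It was the only one of 75 values compared over the 4 sample numbers in which 1 sample lay so far from the others, and chance alone would set about 3.75 of 75 apart. Inhba in 186wt rests on the fewest fragments of any member, and the cause was not tested.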

How the results depend on the processing

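Of the 300 values recomputed under an alternative, 287 kept their direction and their side of the threshold, moved by less than the spread between samples or, for counts, stayed within 1.5 times. With each library rescaled to the same sum (TPM), the mean levels were higher by construction, since the deposited FPKM of a library sum to 477629 to 485096. They were 87.1 for Kitl, 8.11 for Gdnf, 145.9 for Amh, 629 for Inha, 2.61 for Inhba, 93.0 for Inhbb and 19.3 for Fshr, and the ratios between subunits were unchanged to within the spread. Leaving out a sample number left 16 to 17 pair differences of the 21 that 3 numbers allow. Of the 168 ranges of single members, 166 kept their call. The exceptions were Gdnf without 343wt (range 0.28, limma adjusted p = 0.0682) and Fshr relative to the Sertoli marker list (range 0.19, limma adjusted p = 0.0709). The number of genes that differed between sample numbers ran from 9848 without 444wt to 16877 relative to the Sertoli marker list. With the library number as a replicate block, 11774 genes, 7 members and 33 pair differences passed. The range of Inhba was 0.68 with a pseudocount of 1, 0.76 without 186wt and 0.68 without 343wt.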
